A study of Mus musculus with 16 samples.

Results

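The question here is what sonidegib changed in tumours that already received an antibody against PD-L1. The 4 tumours given both agents (the combination group) were compared with the 4 given anti-PD-L1 alone, which makes 8 of the study's 16 libraries. Expression is in FPKM, the fragments of a transcript per kilobase of its length and per M (mega) of mapped fragments, so levels of different genes can be set side by side. Of the 55146 genes listed, the 15105 with at least 1 FPKM in at least 4 of the 16 libraries were compared. The tumours carry the MMTV-PyMT transgene, in which the mammary MMTV promoter drives the polyoma middle T antigen. They came from donors aged 12 weeks and grew in mammary fat pad 4 of FVB hosts, which keep their own immune cells. Both groups were dosed for 28 days with anti-PD-L1, 5 mg/kg given 2 times weekly, and the combination group received sonidegib at 20 mg/kg a day as well. A vehicle group and a group given sonidegib alone at the same dose, 4 tumours each, entered the model and are used for reference. Whether the anti-PD-L1 group also received the carrier of sonidegib, and how many donor tumours were used, is not given in the sources used here. The p-values therefore measure the spread between these tumours.

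Sonidegib blocks Smoothened, the membrane protein that passes on the Hedgehog signal. Hedgehog ligands bind the receptor Ptch1, which releases Smoothened and activates the Gli transcription factors, and Gli1, Ptch1 and Hhip are classic target genes. In mammary tumours the pathway is known mainly for signals from epithelial cells to the surrounding fibroblasts. PD-L1, encoded by Cd274, sits on tumour and myeloid cells and restrains T cells through PD-1, and antibodies against it release that brake. Interferon-gamma made by activated T and NK cells then induces guanylate-binding proteins, immunity-related GTPases, antigen presentation genes and the T cell attractants Cxcl9 to Cxcl11.

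The 8 libraries held an estimated 43.6 to 59.6 M fragments each and 13454 to 14784 genes with at least 1 FPKM. Combination replicate 1 stood apart from the other 3 combination libraries. Its mean Spearman correlation over genes was 0.880 with its own group and 0.940 with the anti-PD-L1 libraries, while the other 3 had 0.921 to 0.926 with their own group. Its slope of log2 deviation on GC content was 0.218 per 10 percentage points, against -0.404 to -0.300 in the other 3 and -0.213 to 0.025 in the anti-PD-L1 libraries. The mean slopes of the groups differed by -0.116 with replicate 1 included (combination minus anti-PD-L1, exact two-sided permutation p = 0.514). Without replicate 1 the slopes of the groups did not overlap, so GC slope and treatment go together in that setting. Combination replicates 2 and 4 had 3.20% and 3.24% of their FPKM in mitochondrially encoded genes, and the group means were 1.54% ± 0.577 (SD, n = 4) with anti-PD-L1 and 2.32% ± 1.07 in the combination (exact permutation p = 0.286). Epithelial markers (Krt8, Krt18, Epcam, Cdh1 and Elf5) summed to 942 to 1295 FPKM with anti-PD-L1 and 839 to 1627 with the combination, so the tumours held the epithelium their labels imply. Skeletal muscle markers ranged from 0.298 to 446 FPKM over the 8 libraries, with anti-PD-L1 replicate 2 and combination replicate 4 highest, and adipocyte markers reached 19.5 FPKM in combination replicate 1 against 0.0919 to 1.99 in the other 7. Combination replicate 1 is used as labelled, and whether its label is right was not tested. By correlation it was nearer the anti-PD-L1 libraries than its own group, while its GC slope lay outside the range of both. Its level of AY036118, described below, was 2708 FPKM, within the range of the other combination libraries and far from the anti-PD-L1 libraries. The results are given with and without it. Of the reference groups, vehicle replicate 3 stood apart with a median log2 deviation of -0.76 and 11361 genes with at least 1 FPKM, against -0.13 to 0.04 and 13107 to 13970 in the other 3.

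**Figure D1:**
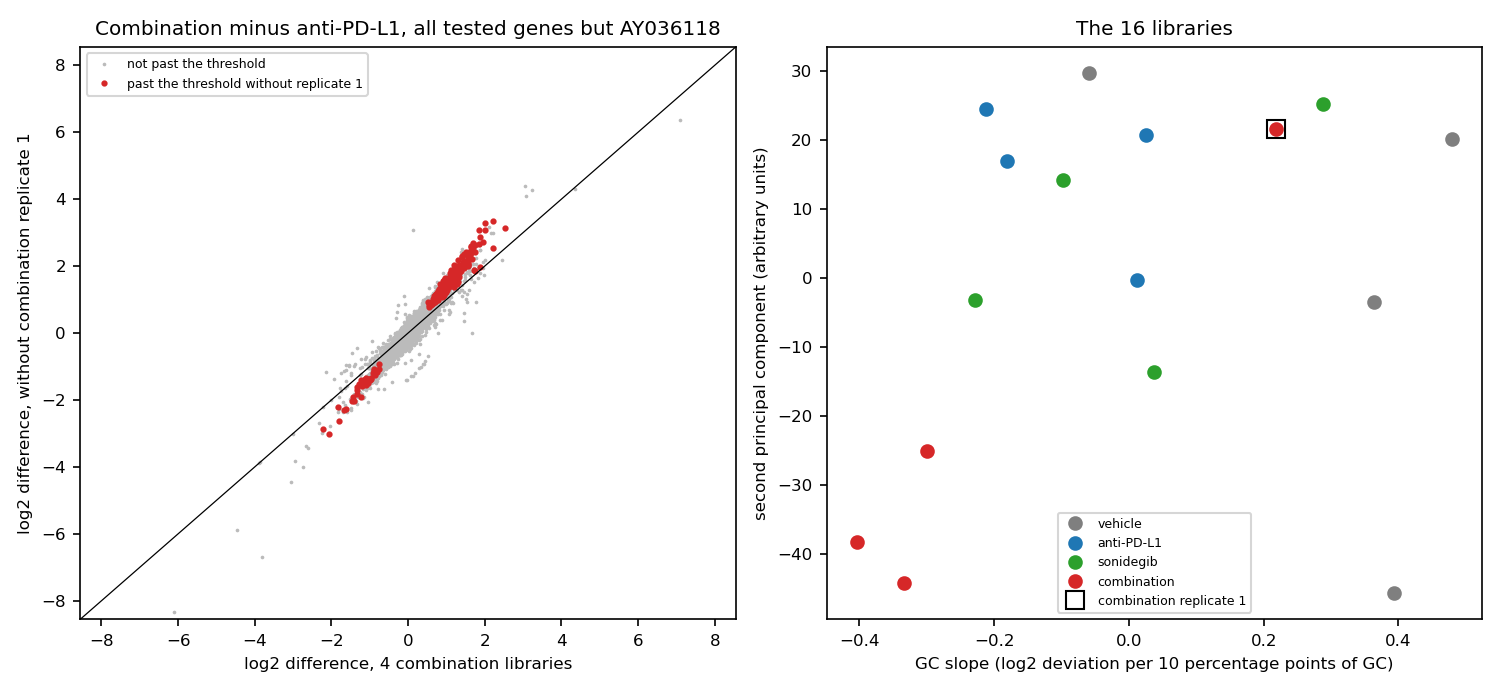
The left panel plots the log2 difference of FPKM + 1 between combination and anti-PD-L1 for each tested gene except AY036118, with all 4 combination libraries on the x axis and without combination replicate 1 on the y axis; red points pass an adjusted p of 0.05 without it. The right panel plots each of the 16 libraries by its GC slope (log2 deviation per 10 percentage points of GC) and its second principal component in arbitrary units: combination replicate 1 lies at 0.218 and 21.7, and the other 3 combination libraries lie at slopes from -0.404 to -0.300 and components from -44.1 to -25.0.

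With all 4 combination libraries, limma called 1 of 15105 genes, 0.00662% of those tested, at an adjusted p of 0.05. It was higher in the combination, and no gene was called lower. An unadjusted p under 0.05 was reached by 873 genes (5.78%), 477 higher (3.16%) and 396 lower (2.62%). For 579 genes (3.83%) the 4 combination values all lay on 1 side of the 4 anti-PD-L1 values, above them for 205 (1.36%) and below for 374 (2.48%). The median log2 difference over all tested genes was -0.05. Without combination replicate 1 the same model called 214 genes (1.42%), 173 higher (1.15%) and 41 lower (0.271%). Their median GC content was 46.6% for those higher and 54.9% for those lower, against 50.2% for genes not called. Leaving out each of the other 7 libraries called 0 genes, with 391 to 833 genes at an unadjusted p under 0.05. A gene that passed only without replicate 1 is given with that condition. Replicate 1 was singled out after seeing the data, for its likeness to the anti-PD-L1 libraries. Leaving it out favours a difference, so the adjusted p-values without it describe the remaining libraries and are no independent test.

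The 1 gene that rose with all libraries was AY036118, a long noncoding RNA gene (ENSMUSG00000105361.1) on chromosome 17 at 39847113 to 39848035 of GRCm38, minus strand. The anti-PD-L1 libraries listed it at 4.89e-05 FPKM or less. The 4 combination libraries listed it at 2708, 1890, 3632 and 2495 FPKM (adjusted p = 0.0488 by limma). The groups were therefore far apart, and no fold is given against a group listed near 0. The sonidegib libraries listed it at 1501, 264, 867 and 2854 FPKM, and of the vehicle libraries only replicate 3 listed it above 1 FPKM, at 215. In GENCODE it lies within a ribosomal RNA gene on the same strand and overlaps Gm42418 on the other strand, so its fragments are not its own alone. Gm42418 itself was at 322 to 1105 FPKM with anti-PD-L1 and 409 to 1100 with the combination, so those ranges overlapped. Lars2, the mitochondrial leucyl-tRNA synthetase gene, was at 288, 323, 451 and 407 FPKM with anti-PD-L1 and 1810, 623, 1049 and 702 in the combination (log2 difference 1.40, SE 0.37, adjusted p = 0.635 by limma). All 4 combination values lay above the anti-PD-L1 values, and combination replicate 1 was highest. Lars2 was listed with AY036118 and Gm42418 among genes of nuclear-retained and ribosomal RNA quality. Whether its fragments come from the synthetase transcript was not tested.

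Genes of the Ly6 family and of the monocyte chemokine cluster had the lowest p-values after AY036118 or stood near them. In bulk tumour RNA, fewer cells of a type and less RNA per cell cannot be told apart, which applies to every gene from here on. Ly6a encodes Sca-1, a surface protein of endothelial cells, fibroblasts, stem cells and interferon-stimulated lymphocytes. It was at 14.1, 20.0, 25.7 and 16.8 FPKM with anti-PD-L1. With the combination it was at 30.1, 157, 175 and 193 FPKM. All 4 combination values were higher than every anti-PD-L1 value, with replicate 1 close to them and the other 3 far above. The log2 difference was 2.53 (SE 0.47, adjusted p = 0.208 by limma), and without replicate 1 Ly6a rose by 3.15 (adjusted p = 0.000144). Ly6a lies on chromosome 15 at 74994877 to 74998031 (ENSMUSG00000075602.10, minus strand). Its neighbour Ly6c1, a related surface protein of endothelial and some lymphoid cells (ENSMUSG00000079018.10, 75044018 to 75048830, minus strand), was at 5.43, 7.89, 2.96 and 2.65 FPKM with anti-PD-L1. It was at 11.1, 14.6, 19.8 and 23.4 FPKM with the combination, so the groups did not overlap. The log2 difference was 1.71 (SE 0.31, adjusted p = 0.208), and without replicate 1 Ly6c1 rose by 1.89 (adjusted p = 0.00489). Ly6c2, the marker of inflammatory monocytes, was at 0.775 to 1.05 FPKM with anti-PD-L1, 0.781 in combination replicate 1 and 4.08, 6.4 and 6.44 in the other 3. It rose by 1.8 without replicate 1 (adjusted p = 0.000429). Of the libraries compared, only combination replicates 2 to 4 were well above 1 FPKM for Ly6c2, so the filter itself may have favoured a difference. Members of this family are similar in sequence, so fragments shared between them may be divided by the counting.

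Ccl8 encodes a chemokine for monocytes and eosinophils and lies on chromosome 11 at 82115185 to 82116799 (ENSMUSG00000009185.2, plus strand). It was at 16.4, 32.0, 12.9 and 18.0 FPKM with anti-PD-L1. It was at 57.8, 63.2, 75.5 and 95.7 FPKM with the combination. Every combination tumour, replicate 1 included, lay above every anti-PD-L1 tumour. The log2 difference was 1.88 (SE 0.42, adjusted p = 0.548 by limma), and without replicate 1 Ccl8 rose by 1.98 (adjusted p = 0.0399). Ccl12, its neighbour and a ligand of the monocyte receptor Ccr2, was at 3.53, 2.74, 7.17 and 2.31 FPKM with anti-PD-L1 and 6.15, 14.8, 7.52 and 16.6 in the combination. Anti-PD-L1 replicate 3 lay above combination replicate 1, so these groups overlapped. Ccl12 rose by 1.53 without replicate 1 (adjusted p = 0.0212), against 1.30 (SE 0.32) with all libraries. Ccl6, made by macrophages and other myeloid cells, was at 2.63 to 7.32 FPKM with anti-PD-L1 and 9.56 to 19.9 with the combination without overlap (log2 difference 1.39, SE 0.36, adjusted p = 0.635). Of the 11 monocyte-attracting chemokines tested, 9 were higher and 2 lower, with a median of 0.66 against -0.05 over all genes. Ccl8, Ccl6 and Ccl9 lay above without overlap, 3 of 11, as did 1.36% of all genes. Ccl8, Ccl11 and Ccl12 were called higher without replicate 1, where 1.15% of all genes were. The eosinophil attractant Ccl11 was at 0.306 to 1.03 FPKM with anti-PD-L1 and 0.730 to 2.43 with the combination.

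The promoters of Ccl8 and Ly6c1, from the RefSeq table for GRCm38.p6, are shown because these genes were higher in all 4 combination tumours. Egln3 and Alkal2, described further down, are shown because they were lower in all 4. Each runs 5′ to 3′ on the gene's strand from 250 bases before the start to 50 after it. The windows are chr11:82114935-82115234 (plus) for Ccl8, chr15:75048788-75049087 (minus) for Ly6c1, chr12:54203825-54204124 (minus) for Egln3 and chr12:30884074-30884373 (plus) for Alkal2.
Ccl8: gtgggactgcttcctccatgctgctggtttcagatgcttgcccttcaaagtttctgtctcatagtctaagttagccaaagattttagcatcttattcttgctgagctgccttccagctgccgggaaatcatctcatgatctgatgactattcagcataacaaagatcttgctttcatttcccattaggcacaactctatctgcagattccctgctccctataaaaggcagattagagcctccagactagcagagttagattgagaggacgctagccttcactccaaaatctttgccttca
Ly6c1: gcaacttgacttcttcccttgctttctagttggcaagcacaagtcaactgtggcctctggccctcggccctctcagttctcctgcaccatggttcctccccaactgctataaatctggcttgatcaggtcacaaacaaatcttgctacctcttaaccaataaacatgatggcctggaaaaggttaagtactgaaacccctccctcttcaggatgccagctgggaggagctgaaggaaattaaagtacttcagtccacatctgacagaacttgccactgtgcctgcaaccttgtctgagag
Egln3: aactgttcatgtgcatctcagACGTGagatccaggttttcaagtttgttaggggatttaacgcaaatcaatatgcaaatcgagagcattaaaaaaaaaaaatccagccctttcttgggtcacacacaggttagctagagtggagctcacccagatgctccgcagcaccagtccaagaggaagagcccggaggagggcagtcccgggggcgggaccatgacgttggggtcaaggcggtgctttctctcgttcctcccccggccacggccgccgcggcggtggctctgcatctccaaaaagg
Alkal2: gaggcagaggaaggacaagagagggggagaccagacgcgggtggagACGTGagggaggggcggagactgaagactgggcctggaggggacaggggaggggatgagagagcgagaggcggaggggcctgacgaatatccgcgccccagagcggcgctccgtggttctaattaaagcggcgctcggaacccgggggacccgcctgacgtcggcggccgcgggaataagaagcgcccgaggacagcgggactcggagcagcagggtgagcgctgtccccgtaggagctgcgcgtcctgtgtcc
Capitals mark the hypoxia response core ACGTG, which begins 229 bases before the start in Egln3 and 204 bases before it in Alkal2. It was found in 19.6% of 32851 RefSeq promoters of this length, on either strand. The interferon response element GAAANNGAA (8.56% of promoters), the gamma-activated site TTCNNNGAA (8.30%) and the Gli site GACCACCCA (0.253%) were also searched on both strands. The interferon element and the gamma-activated site can overlap. None of these 3 was found in the 4 windows or in that of Ccl12, which says only that these letters are not in the windows searched.

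The remaining genes with the lowest p among those higher in the combination did not pass with all libraries. Alox5ap, the membrane helper of 5-lipoxygenase in leukotriene synthesis, was at 2.83, 4.47, 4.48 and 5.00 FPKM with anti-PD-L1 and 7.28, 12.9, 13.8 and 12.8 in the combination. The groups did not overlap, and Alox5ap rose by 1.46 without replicate 1 (adjusted p = 0.0136), against 1.27 (SE 0.29, adjusted p = 0.548) with all libraries. Slpi, a secreted inhibitor of leukocyte elastase made by epithelia, was at 11.2, 14.8, 45.4 and 26.0 FPKM with anti-PD-L1 and 57.6, 99.8, 45.8 and 109.8 in the combination. Combination replicate 3 lay only just above anti-PD-L1 replicate 3, and Slpi rose by 1.86 without replicate 1 (adjusted p = 0.0399). Rarres2, the gene of the chemoattractant chemerin, was at 3.06 to 9.20 FPKM with anti-PD-L1 and 11 to 37.3 with the combination without overlap (log2 difference 1.65, SE 0.39, adjusted p = 0.548 by limma). Hoxb2, a homeobox transcription factor gene, was at 0.0171 to 0.275 FPKM with anti-PD-L1 and 0.152, 4.11, 4.22 and 3.27 in the combination. Replicate 1 lay within the anti-PD-L1 range, and the log2 difference without it was 2.04. Hoxb2 reached 1 FPKM only in combination replicates 2 to 4 and sonidegib replicate 2. The filter itself thus favoured a difference, and this rise is no result. Wfdc21 was at 0.654 to 3.57 FPKM in the combination and 0 to 0.323 with anti-PD-L1, and Reg1 at 1.11 to 1.55 and 0.157 to 0.699 FPKM. Reg1 reached 1 FPKM in the 4 combination libraries alone and Wfdc21 in 3 of them and 1 sonidegib library, so the filter itself favoured a difference, and their separation is no result.

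Among the genes lower in the combination, Egln3 had the lowest p. It encodes the prolyl hydroxylase PHD3, which marks hypoxia-inducible factor for degradation and is itself induced by hypoxia (ENSMUSG00000035105.5, chromosome 12 at 54178981 to 54203860, minus strand). It was at 67.5, 44.8, 75.6 and 76.1 FPKM with anti-PD-L1. It was at 43.2, 22.2, 17.3 and 26.6 FPKM with the combination. The groups did not overlap, although replicate 1 lay just under the lowest anti-PD-L1 tumour. The log2 difference was -1.29 (SE 0.28, adjusted p = 0.548 by limma), and without replicate 1 Egln3 fell by 1.53 on the log2 scale (adjusted p = 0.0062). Il20rb, a receptor subunit for cytokines of the interleukin-20 group, was at 5.07, 6.86, 2.64 and 4.41 FPKM with anti-PD-L1 and 2.27, 1.10, 1.10 and 1.13 in the combination. It fell by 1.39 without replicate 1 (adjusted p = 0.0233). Cdkn2b, the gene of the cyclin-dependent kinase inhibitor p15, was at 5.43, 4.31, 4.11 and 3.60 FPKM with anti-PD-L1 and 2.99, 0.929, 1.32 and 0.679 in the combination. The groups did not overlap, and Cdkn2b fell by 1.44 without replicate 1 (adjusted p = 0.00828).

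Alkal2, the gene of a ligand of the receptor kinases ALK and LTK (ENSMUSG00000054204.6, chromosome 12 at 30884322 to 30893854, plus strand), was low in all combination tumours. It was at 4.53, 5.86, 4.04 and 16.3 FPKM with anti-PD-L1 and 1.29, 1.69, 1.19 and 1.51 in the combination. The groups did not overlap, with anti-PD-L1 replicate 4 well above the others (log2 difference -1.65, SE 0.40, adjusted p = 0.548 by limma). Without combination replicate 1 the difference was -1.63 (adjusted p = 0.0872), so Alkal2 did not pass there. Further genes had no overlap and did not pass with all libraries. Pycr1, of proline synthesis, was at 6.98 to 15 FPKM with anti-PD-L1 and 4.07 to 4.95 with the combination, and the lamellipodin gene Raph1 was at 13.1 to 16.2 and 6.67 to 8.78. Espn, which bundles actin, was at 4.77 to 8.16 and 0.451 to 4.52 FPKM, and Gm4795 at 2.48 to 2.97 and 0.877 to 2.07. Slitrk4, a neuronal membrane protein gene, and Ak4, a mitochondrial adenylate kinase gene, overlapped between the groups only through combination replicate 1.

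**Figure D2:**
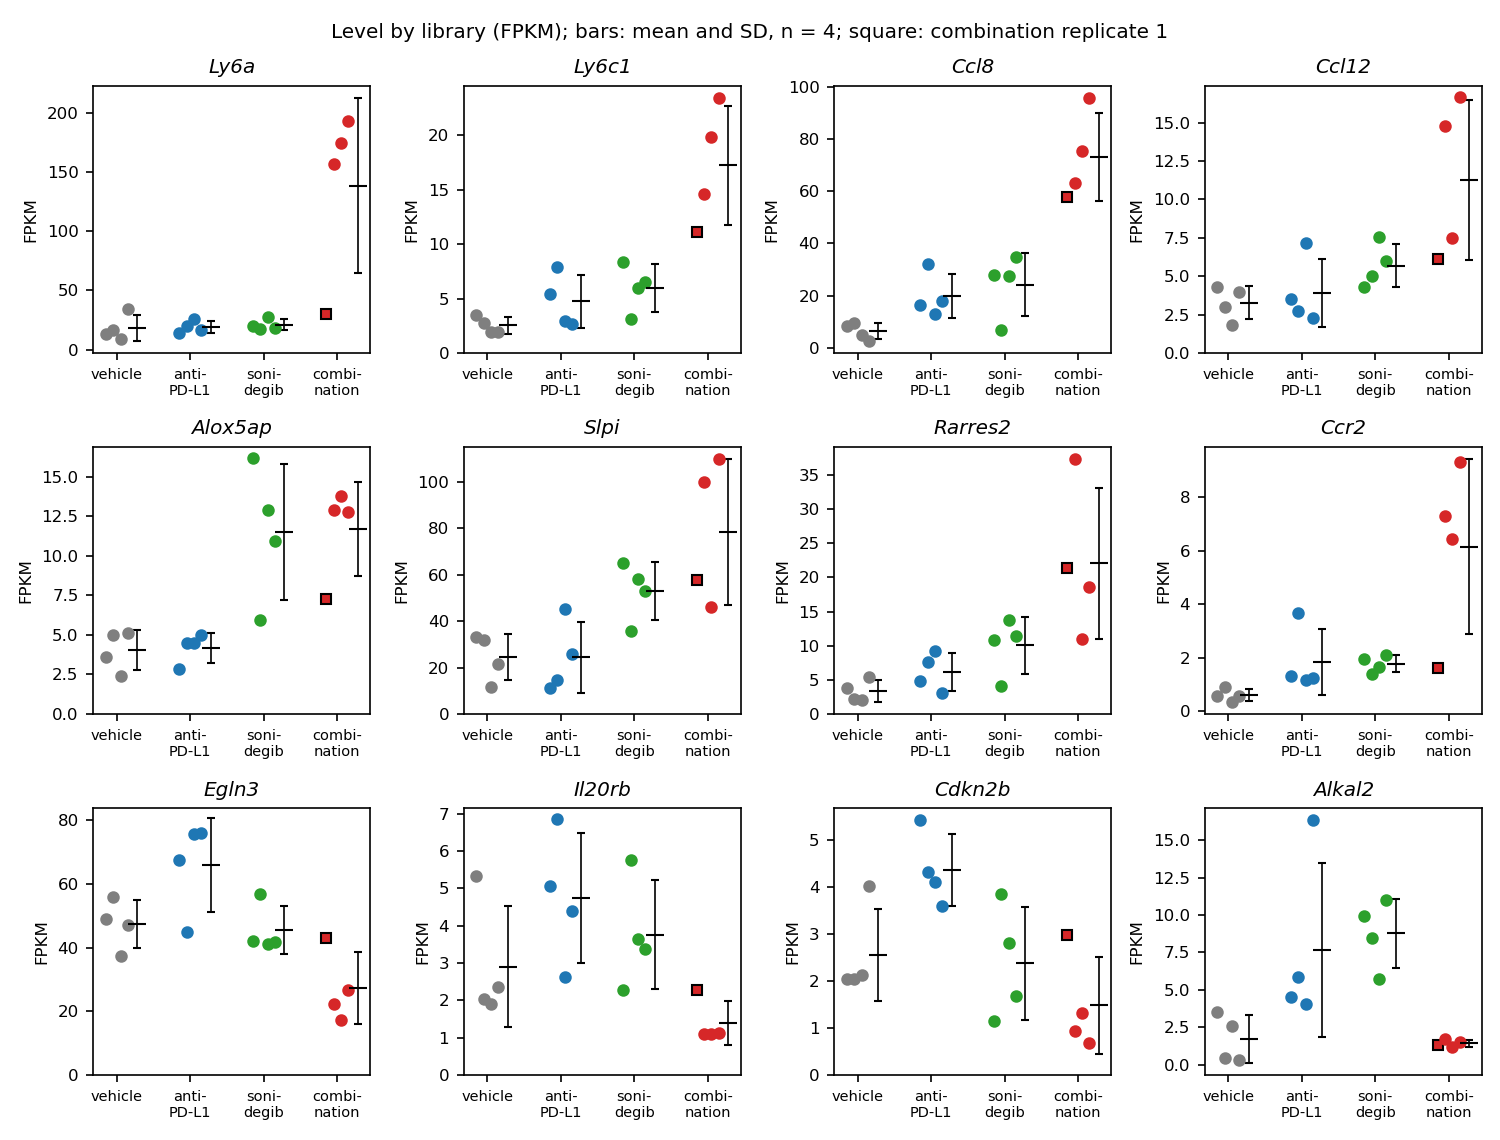
Each panel plots 1 gene in FPKM for the 16 libraries in 4 groups, with the mean and SD of 4 libraries beside the points and combination replicate 1 as a square. Ly6a, Ly6c1, Ccl8, Alox5ap, Slpi and Rarres2 lie above every anti-PD-L1 value in all 4 combination libraries, Ccl12 and Ccr2 overlap, and Egln3, Il20rb, Cdkn2b and Alkal2 lie below.

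The study also allows the effect of sonidegib without the antibody (sonidegib minus vehicle) to be set beside its effect on top of the antibody, and these comparisons share no library. The median of sonidegib minus vehicle over all 15105 genes was 0.33, and 0.15 without vehicle replicate 3, so values for sonidegib alone are to be read against that offset. The difference of the effects was tested as an interaction. Limma called 1 gene, Alkal2 (-3.68, SE 0.56, adjusted p = 0.0490), and 1492 genes (9.88%) had an unadjusted p under 0.05. Without vehicle replicate 3, a setting chosen after seeing the data, Alkal2 no longer passed (-3.88, SE 0.59, adjusted p = 0.141), no gene was called and 863 had an unadjusted p under 0.05. Alkal2 was 2.02 higher with sonidegib than with vehicle, at 5.71 to 11 against 0.331 to 3.52 FPKM, and 1.65 lower when sonidegib was added to the antibody. The median interaction over all genes was -0.35 without scaling and 0.03 after median-of-ratios scaling, where no gene was called (1063 at an unadjusted p under 0.05). Ly6a differed by 0.31 between sonidegib and vehicle, close to the median of all genes, at 17.6 to 27.8 against 9.26 to 34.4 FPKM, and its interaction of 2.22 did not pass (SE 0.67, adjusted p = 0.485). Egln3 had -0.06 for sonidegib alone and an interaction of -1.23 (SE 0.39, adjusted p = 0.485). Ccl8 was 1.69 higher with sonidegib alone, and its interaction was 0.19 (SE 0.60). For Alox5ap the effects were 1.27 with and 1.27 without the antibody. Without combination replicate 1 the interaction was called for 5 genes, Ly6a, Hoxb2 and Ly6c2 upward and Alkal2 and Pgf downward. Hoxb2 passed the filter mainly through the combination libraries where it was high, so its call is no result. For Ly6c2, which was near 1 FPKM with anti-PD-L1, the filter may also have favoured a difference. Pgf encodes placental growth factor.

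**Figure D3:**
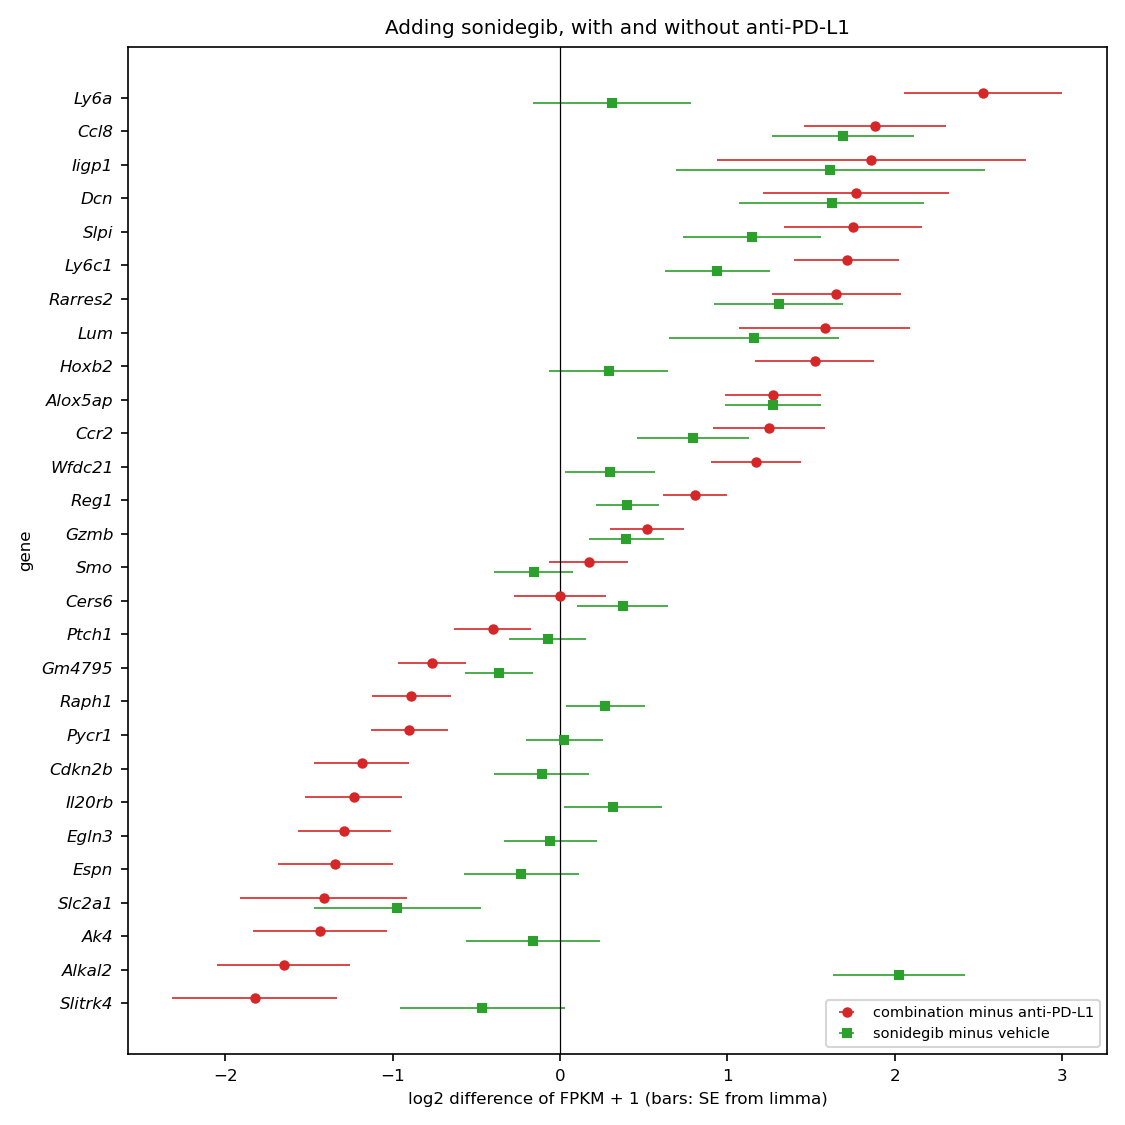
Log2 differences of FPKM + 1 (x axis, bars are the SE from limma) for the tested genes named by their p or by a set list, with combination minus anti-PD-L1 in red circles and sonidegib minus vehicle in green squares. Ccl8, Dcn and Alox5ap have nearly equal values in both, while Ly6a (2.53 and 0.31) and Alkal2 (-1.65 and 2.02) differ.

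The lists of interferon-gamma, antigen presentation and T cell genes were higher in combination replicates 2 to 4 and not in replicate 1. The list of GTPases and chemokines induced by interferon-gamma had 20 tested members of 22. All 20 had a positive log2 difference, from 0.60 to 2.21 with a median of 1.15 against -0.05 over all genes. An unadjusted p under 0.05 was reached by 9 of them and by 5.78% of all genes. None passed with all libraries, and the groups overlapped for every member. Iigp1, an immunity-related GTPase, was at 38.2, 24.1, 22.6 and 26.0 FPKM with anti-PD-L1. With the combination it was at 6.94, 188, 356 and 203 FPKM. Replicate 1 was thus the lowest of the 8 tumours and the other 3 the highest (log2 difference 1.86, SE 0.92, adjusted p = 0.837 by limma). Without replicate 1 Iigp1 rose by 3.09 (adjusted p = 0.000971). Cxcl9, the T cell attractant, was at 1.67 to 3.89 FPKM with anti-PD-L1 and 0.536, 21.2, 20.3 and 12.6 in the combination, and rose by 2.36 without replicate 1 (adjusted p = 0.00399). The guanylate-binding protein gene Gbp8 was at 1.10 to 2.07 FPKM and then at 0.152, 25.0, 51.3 and 11.9, and rose by 3.33 without replicate 1 (adjusted p = 0.00306). In all, 11 of the 20 were called higher without replicate 1, where 1.15% of all genes were, with a list median of 1.83 against -0.02 over all genes. The mean deviation of the list in the libraries was -0.33 to 0.04 with anti-PD-L1 and -0.91, 1.31, 2.36 and 1.48 in the combination.

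In the antigen presentation lists combination replicate 1 was again low and the other 3 high. Of 21 MHC class I genes tested, 19 were higher, with a median of 0.50 and none with an unadjusted p under 0.05. B2m, the class I light chain, was at 897 to 1344 FPKM with anti-PD-L1 and 766, 2759, 1996 and 4819 in the combination. All 9 MHC class II genes tested were higher (median 0.63), and H2-Aa was at 27.8 to 59.3 FPKM with anti-PD-L1 and 22.1, 189, 124 and 154 in the combination. Ctss, the protease that trims the class II invariant chain, rose by 1.47 without replicate 1 (adjusted p = 0.0399). Of the type I interferon genes, 23 of 26 were higher with a median of 0.32. The list's mean deviation was -0.29 to 0.16 with anti-PD-L1 and 0.15, -0.78, 0.63 and 1.37 in the combination, so replicates 3 and 4 were high and replicate 2 was the lowest of the 8. Ifit3 was at 3.92 to 8.39 FPKM with anti-PD-L1 and 6.04, 5.06, 23.3 and 84.8 in the combination, and no member was called with or without replicate 1.

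T cell transcripts were scarce. Of 24 listed genes 7 passed the filter, all 7 were higher (median 0.71), and a gene near 1 FPKM can pass through 1 group alone. Cd3g, of the T cell receptor complex, was at 0.635 to 1.60 FPKM with anti-PD-L1 and 0.679, 4.17, 3.29 and 6.34 in the combination. It rose by 1.30 without replicate 1 (adjusted p = 0.0119), as did the receptor constant chains Trac, Trbc1 and Trbc2 by 1.14, 1.32 and 1.65. Of the 16 libraries, only combination replicates 2 to 4 and anti-PD-L1 replicate 3 reached 1 FPKM for Trbc1. The filter itself thus favoured a difference for Trbc1, and its rise is no result. Summed T cell markers (Cd3d, Cd3e, Cd3g, Cd2 and Trac) were 2.61 to 4.29 FPKM with anti-PD-L1 and 1.31, 9.10, 9.68 and 12.2 in the combination. Cd8a was at 0.285 to 0.980 FPKM and then at 0.397, 1.58, 2.37 and 1.27 (exact permutation p = 0.114), and Cd4 averaged 0.686 ± 0.495 and 0.691 ± 0.251 FPKM (SD, n = 4; exact permutation p = 1). Foxp3, of regulatory T cells, was at 0.0660 to 0.15 and 0.0495 to 0.267 FPKM. Ifng was at 0 to 0.265 and 0.102 to 0.525 FPKM (exact permutation p = 0.143). Of the effectors, the chemokine gene Ccl5 was at 1.47 to 2.65 FPKM with anti-PD-L1 and 2.90 to 7.96 with the combination without overlap, and rose by 1.14 without replicate 1 (adjusted p = 0.0274). Granzyme B (Gzmb) was at 0.250 to 0.766 and 0.658 to 1.59 FPKM (log2 difference 0.52, SE 0.22, adjusted p = 0.821). Gzma and Cd247 were under the filter and did not overlap, at 0.0797 to 0.182 against 0.268 to 0.624 FPKM and 0.206 to 0.365 against 0.436 to 0.693 FPKM. They are among 6 of 142 listed genes under the filter with the smallest p that 4 against 4 allow, 0.0286 by exact permutation, and 0 of the 142 pass adjustment (adjusted p = 0.461).

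Macrophage and monocyte genes showed a smaller shift that replicate 1 shared in part. Of 22 tested, 19 were higher (median 0.48), and 10 had an unadjusted p under 0.05, as did 5.78% of all genes. Ccr2, the receptor that brings monocytes out of the blood, was at 1.30, 3.66, 1.15 and 1.23 FPKM with anti-PD-L1 and 1.59, 7.29, 6.43 and 9.30 in the combination. Replicate 1 lay within the anti-PD-L1 range, and Ccr2 rose by 1.68 without it (adjusted p = 0.00191). Lyz2, lysozyme of myeloid cells, was at 61.8 to 74.7 FPKM and then at 76.2, 172, 104 and 170 without overlap. Arg1, arginase of suppressive myeloid cells, was at 17.8, 29.4, 12.3 and 82.3 FPKM and then at 20.6, 199, 176 and 325, and passed neither with (adjusted p = 0.822) nor without replicate 1 (log2 difference 3.00, adjusted p = 0.0807). Summed macrophage markers were 127 to 219 FPKM with anti-PD-L1 and 214 to 338 with the combination. Neutrophil and dendritic cell lists had medians of 0.06 and -0.04. Immunoglobulin transcripts were uneven: Igkc was at 2.33 to 5.35 FPKM with anti-PD-L1 and 0.739, 6.96, 21 and 18.6 in the combination, while the B cell markers Ms4a1 and Cd79a stayed under 0.1 FPKM.

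**Figure D4:**
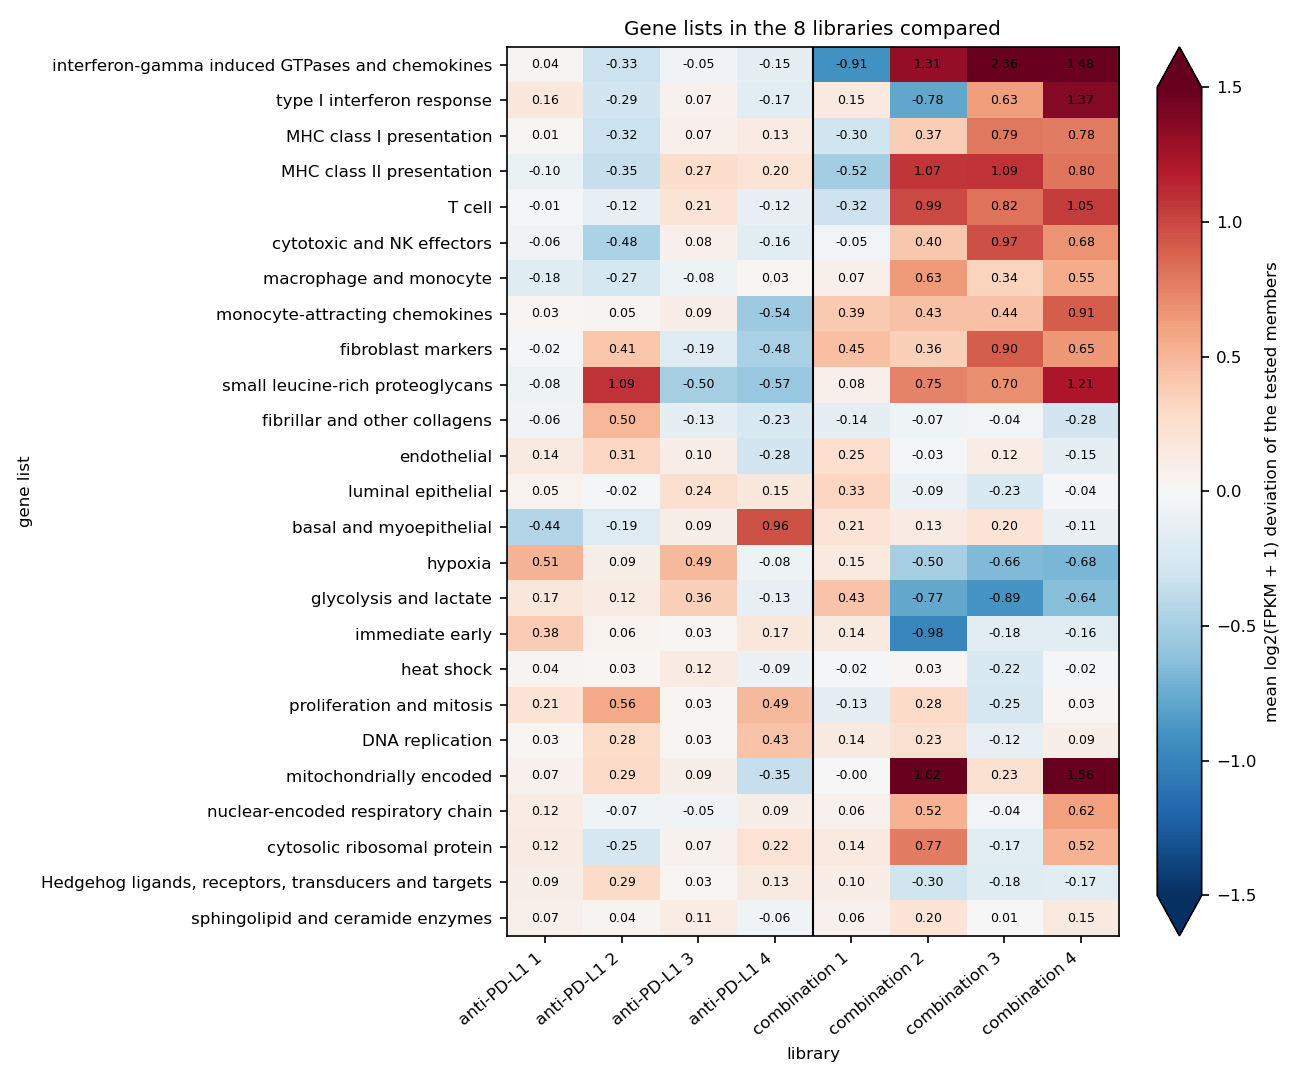
Mean log2(FPKM + 1) deviation of the tested members of 25 gene lists (rows) in the 8 libraries (columns), from blue (low) to red (high), with the colour scale ending at 1.5 on either side and the value printed in each cell. Combination replicates 2 to 4 are red for interferon-gamma, antigen presentation and T cell lists and blue for hypoxia and glycolysis, while combination replicate 1 has -0.91, -0.52 and -0.32 for interferon-gamma, MHC class II and T cell genes and 0.15 and 0.43 for hypoxia and glycolysis.

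Genes of the hypoxia response were lower in the same 3 tumours. Of 23 tested, 19 were lower and 4 higher, with a median of -0.65, while 8497 of all 15105 genes were lower. An unadjusted p under 0.05 was reached by 12 of the 23 and by 5.78% of all genes. Egln3, given above, was the only member that lay below without overlap, as did 2.48% of all genes. Slc2a1, the glucose transporter GLUT1, was at 46.9, 36.3, 55.1 and 35.5 FPKM with anti-PD-L1. It was at 58.5, 7.73, 9.01 and 13 FPKM with the combination. Replicate 1 was the highest of the 8 tumours and the other 3 the lowest (log2 difference -1.41, SE 0.50, adjusted p = 0.812 by limma). Without replicate 1 Slc2a1 fell by 2.03 (adjusted p = 0.00855), Ak4 by 1.91 (adjusted p = 0.00423) and Ero1l, an oxidase of protein folding, by 1.61 (adjusted p = 0.0413). Vegfa, the vascular growth factor gene, was at 67.8, 33.1, 67.1 and 18.9 FPKM and then at 37.2, 12.4, 19.2 and 8.49, which overlapped (log2 difference -1.25, SE 0.47, adjusted p = 0.812). Hif1a, which encodes the regulator itself, was at 18.6 to 27.5 and 15.5 to 24.2 FPKM (log2 difference -0.27, SE 0.32).

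Of 19 glycolysis and lactate genes tested, 18 were lower (median -0.64), as were 8497 of all 15105. Eno2 and Pdk1 lay below without overlap, as did 2.48% of all genes. Eno2, an enolase, was at 2.09 to 3.60 FPKM with anti-PD-L1 and 0.735 to 1.93 with the combination, and Pdk1, the kinase that holds pyruvate back from mitochondria, at 15.2 to 17.9 and 7.86 to 14.4. Gapdh was at 296 to 380 FPKM with anti-PD-L1 and 433, 191, 150 and 169 in the combination. The lactate exporter Slc16a3 was at 12.4, 13.3, 84.9 and 14.6 FPKM and then at 34.0, 5.72, 1.99 and 1.41, and fell by 2.63 without replicate 1 (adjusted p = 0.0399). Of the immediate early genes 17 of 19 were lower (median -0.43). Fosl2, of the AP-1 family, was at 15.4 to 19.0 FPKM and then at 6.55 to 15 without overlap, and the stress gene Ier3 at 152 to 323 and then at 257, 25.1, 44.9 and 66.5. They fell by 1.11 and 2.27 without replicate 1 (adjusted p = 0.0459 and 0.00944).

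**Figure D5:**
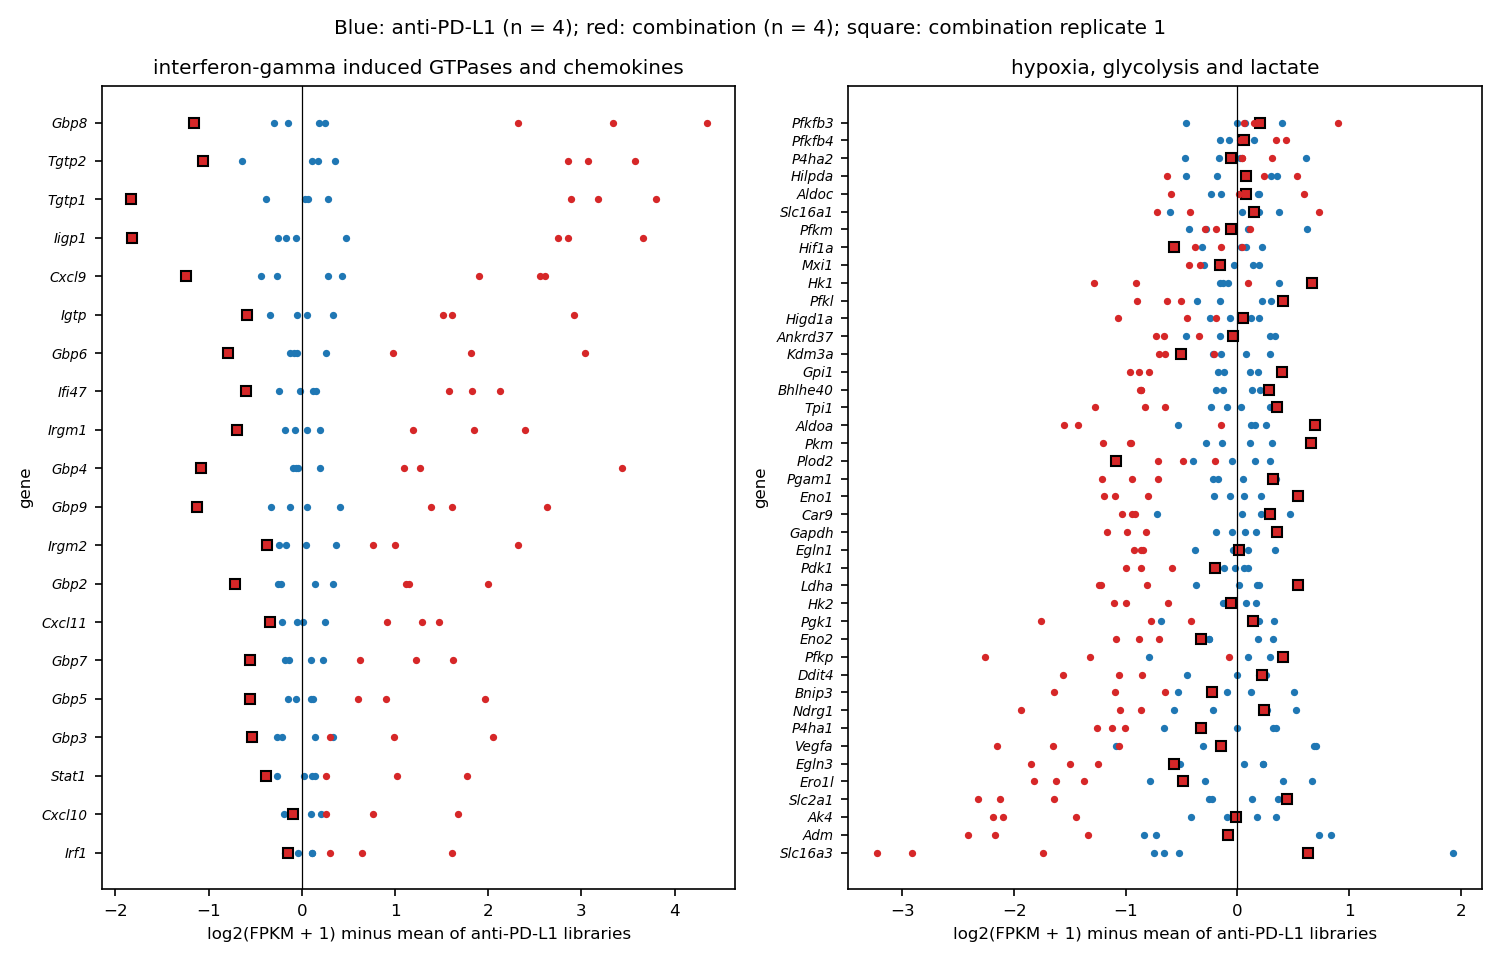
Each row is a gene and each point a library, placed by its log2(FPKM + 1) minus the mean of the anti-PD-L1 libraries, with anti-PD-L1 in blue, the combination in red and combination replicate 1 as a square. In the left panel replicate 1 lies on the low side for interferon-gamma genes (6.94 FPKM for Iigp1 against 188 to 356 in the other 3), and in the right panel it lies near the anti-PD-L1 libraries for hypoxia and glycolysis genes.

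Stromal genes were higher in part, some of them in replicate 1 too. Of 17 fibroblast markers 15 were higher (median 0.50). Only Ly6a and Ly6c1, which endothelial and immune cells also make, lay above without overlap, as did 1.36% of all genes. S100a4, of fibroblasts and macrophages, was at 3.80 to 9.19 FPKM with anti-PD-L1 and 7.83 to 36.3 with the combination, and rose by 1.68 without replicate 1 (adjusted p = 0.0141). Dcn and Lum, small proteoglycans of the collagen matrix, were at 14.7, 34.7, 7.54 and 4.41 FPKM and at 4.58, 11.9, 2.75 and 2.29 FPKM with anti-PD-L1. With the combination Dcn was at 22.3, 49.7, 40.9 and 69.2 and Lum at 6.77, 23.7, 12.0 and 27.4. Anti-PD-L1 replicate 2 was high for both and made the groups overlap (log2 differences 1.77 and 1.58, SE 0.55 and 0.51, adjusted p = 0.759 and 0.812). That library also held the most skeletal muscle transcripts, and their part in these values was not tested. Periostin (Postn) was at 22.6 to 50.1 FPKM and then at 13.4, 239, 83.1 and 196, and rose by 2.28 without replicate 1 (adjusted p = 0.019). Timp2, an inhibitor of metalloproteases, was at 15.8 to 29.1 and 31.8 to 62.6 FPKM without overlap (log2 difference 1.10, SE 0.34, adjusted p = 0.726). Collagens had a median of -0.11, with Col3a1 at 28.8 to 93.5 and 53.1 to 82.9 FPKM. The endothelial list had a median of -0.24, with 9 of 13 lower, among them Flt1, a receptor for vascular growth factors, at 1.91 to 2.70 and 0.860 to 2.04 FPKM. The TGF-beta list had a median of -0.06.

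Epithelial lists showed no shared direction. The medians were -0.06 for luminal, -0.19 for basal and 0.06 for milk genes, against -0.05 over all genes. Single members ranged widely: the milk protein gene Lalba was at 794 to 1499 FPKM with anti-PD-L1 and 2107, 33.2, 59.4 and 111 in the combination, with replicate 1 highest and the other 3 lowest (adjusted p = 0.837 by limma). Krt19 was at 23.5 to 134 FPKM and then at 82.6, 15.6, 14.6 and 7.87 (adjusted p = 0.837). N-cadherin (Cdh2) was at 0.408 to 0.815 FPKM and then at 0.551, 2.36, 3.44 and 2.92, and rose by 1.26 without replicate 1 (adjusted p = 0.0184). Of the libraries compared, only combination replicates 2 to 4 reached 1 FPKM for Cdh2, so the filter itself may have favoured a difference. Of 24 mitosis genes 23 were lower by a small amount (median -0.37, -0.31 after median-of-ratios scaling), 1 had an unadjusted p under 0.05, and none was called with or without replicate 1. Cdc20, which activates the anaphase-promoting complex, was at 14.5 to 27.7 and 6.76 to 20.9 FPKM. All 13 mitochondrially encoded genes were higher (median 0.80), carried by combination replicates 2 and 4. The level of mt-Atp8 was 878 to 2286 FPKM with anti-PD-L1 and 2364, 7361, 2667 and 6902 in the combination. Ribosomal protein genes had a median of 0.26 and nuclear respiratory chain genes 0.20, with the same pair of libraries high. The p53, heat shock, endoplasmic reticulum stress, cholesterol and autophagy lists had medians of -0.15, -0.01, -0.04, -0.17 and 0.09. Haemoglobin and other erythrocyte genes had a median of -0.74, with combination replicates 2 and 4 lowest.

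None of the Hedgehog and checkpoint genes passed with all libraries. Smo, the target of sonidegib, was at 13.8, 14.2, 15.5 and 18.8 FPKM with anti-PD-L1 and 14.4, 23, 15.9 and 18.0 in the combination (log2 difference 0.17, SE 0.24, adjusted p = 0.923 by limma). Ptch1, receptor and target, was at 3.17, 3.86, 3.71 and 4.07 FPKM and then at 3.29, 2.20, 2.15 and 2.66. Combination replicates 2 to 4 lay below all anti-PD-L1 tumours and replicate 1 within them (log2 difference -0.40, SE 0.23, adjusted p = 0.837), and without replicate 1 Ptch1 did not pass either (-0.49, adjusted p = 0.364). Gli1 was at 0.0155 to 0.278 FPKM with anti-PD-L1 and 0.0582 to 0.190 with the combination (exact permutation p = 0.943), and Hhip at no more than 0.0133 FPKM in any of the 8. Gli2, another transcription factor of the pathway and named after its values were seen, was at 0.0342, 0.112, 0.0259 and 0.0835 FPKM with anti-PD-L1 and 0.0378, 0.376, 0.683 and 0.264 in the combination, with replicates 2 to 4 above every anti-PD-L1 tumour (exact permutation p = 0.0857). At these levels a change in the target genes may not be detectable. Of the 11 Hedgehog genes tested 8 were lower (median -0.23). Cyclin D1 (Ccnd1), which many pathways besides Hedgehog control, was at 63.1, 58.3, 49.1 and 70.6 FPKM and then at 56.3, 20.5, 26.7 and 20.9, and fell by 1.37 without replicate 1 (adjusted p = 0.0153).

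Cd274, which encodes PD-L1, was at 0.671, 0.555, 0.689 and 0.668 FPKM with anti-PD-L1 and 0.417, 0.710, 2.07 and 1.20 in the combination. Replicate 1 was the lowest of the 8 and the other 3 the highest (exact permutation p = 0.314). PD-1 (Pdcd1) was at 0.255 to 0.832 FPKM and then at 0.291, 1.24, 0.898 and 1.06 (exact permutation p = 0.143). The costimulatory ligand Cd86 was at 0.938 to 1.62 FPKM and then at 0.636, 5.76, 2.63 and 4.23, and rose by 1.12 without replicate 1 (adjusted p = 0.022). The study's title concerns ceramide synthesis, so sphingolipid enzymes were followed. Of 28 tested 16 were higher and 12 lower (median 0.03), with 0 at an unadjusted p under 0.05 and 0 called without replicate 1. Cers6, a ceramide synthase, was at 1.47 to 4.6 FPKM with anti-PD-L1 and 2.43 to 3.17 with the combination (log2 difference -0.00, SE 0.27). Cers4 was at 0.294 to 0.485 and 0.430 to 0.863 FPKM (exact permutation p = 0.0857). Cers5 was at 16 to 17.9 and 18.6 to 21.7 FPKM without overlap (log2 difference 0.28, SE 0.25, adjusted p = 0.886). The alkaline ceramidase gene Acer2 lay below without overlap, at 2.15 to 2.73 and 1.63 to 2.05 FPKM (log2 difference -0.25, SE 0.19, adjusted p = 0.869).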

How the data were processed

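RNA of 16 breast tumours was sequenced, 4 per treatment. The labels name both polyA RNA and libraries depleted of ribosomal RNA, and this was not resolved. The authors deposited FPKM per gene. Per the submitters' processing notes, TopHat and Cufflinks were used with GRCm38.p6 (mm10). Tool versions, strand settings and gene models: not given in the sources used here. Coordinates come from GENCODE M21, which matched 54547 gene IDs.

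Genes reaching 1 FPKM in 4 or more of the 16 libraries were tested on log2(FPKM + 1) with limma 3.58.1 (R 4.3.3), fitting all 4 groups with an intensity trend and robust variances (12 residual degrees of freedom) and Benjamini-Hochberg adjustment over all 15105 genes at 0.05. Fold changes are on this log2(FPKM + 1) scale, which understates the change of low genes. FPKM holds no counts, so the depth was only estimated from 4959 genes with 1 transcript, and 1 fragment on a transcript of 2000 bases was worth 0.00839 to 0.0115 FPKM. For listed genes that missed this minimum, FPKM was compared by exact permutation, two-sided (smallest p 0.0286) in scipy 1.17.1. On simulated data, 90% of genes changed by 2 and 97% of genes changed by 3 on the log2 scale were recovered for combination against anti-PD-L1 (15105 genes), and 6.03% of calls were false. The simulated noise was independent between genes, with no library standing apart and no GC trend. Changes were set only in genes with a mean log2(FPKM + 1) above 2. These shares therefore need not hold for the measured libraries, and a gene not called may still have changed.

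The rule for named genes took the 15 largest changes among called genes in each direction or, with under 5 called, the 10 lowest p, and also the called or lowest-p members of 44 gene lists and a set of 20 genes of interest. The comparison, the lists and these genes were chosen with earlier results of these data known. Of 820 list entries 8 were not analysed here and 2 matched through a synonym. Lists are described by counts and medians. Other settings changed the scaling, pseudocount, filter, model, GC or length trend, block or a left-out library. The settings that joined a left-out combination replicate 1 with a GC or length correction, or left out vehicle replicate 3, were chosen after seeing the data. So was the choice to give results without combination replicate 1 beside those with it. The labels name no litter, donor or batch, and library numbers run through the groups in turn, so library order and treatment cannot be told apart. Pairs with the same replicate number had correlations of deviations from -0.282 to -0.130.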

Additional observations from a re-analysis of the deposited data

Results flagged for a closer look

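Values were singled out where 1 of the 4 libraries in a group lay far from the other 3 (Dixon's ratio above its 95% critical value). Of 406 gene or library measures by group that were checked, chance alone would single out about 1 in 20. Combination replicate 1 accounted for 15 of the values singled out, anti-PD-L1 replicate 2 for 7, anti-PD-L1 replicate 4 for 5, combination replicate 4 for 4, and anti-PD-L1 replicates 1 and 3 for 1 each.

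In combination replicate 1 the immune genes were low against the other 3: Ly6a at 30.1 FPKM, Iigp1 at 6.94, Alox5ap at 7.28, Cd4 at 0.320, the class II loading gene H2-DMb1 at 10.5 and the ectonucleotidase Entpd1 (CD39) at 3.47. Hoxb2 at 0.152 FPKM and the transcription factor Zeb1 at 2.04 were low there too. High in that library were Il20rb at 2.27 FPKM, Gm4795 at 2.07, the actin bundler Fscn1 at 7.66, the laminin chain Lamb3 at 21.8, Snai1 at 1.19 and the adipocyte lipid carrier Fabp4 at 26.2. Its GC slope was 0.218 per 10 percentage points.

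In anti-PD-L1 replicate 2, Cd274 was low at 0.555 FPKM, as were the immunoproteasome subunit Psmb10 at 31.6 and the immunoglobulin chain Igkc at 2.33. Ccr2 at 3.66 FPKM, the gelatinase Mmp2 at 11.5, Hmgcs1 of sterol synthesis at 21.6 and Hhip at 0.0133 were high. In anti-PD-L1 replicate 4, Espn at 8.16 FPKM, Cd4 at 1.42, the casein Csn1s2a at 11 and the death receptor Tnfrsf10b at 4.14 were high, and Ighm at 1.28 was low. Slc16a3 was high at 84.9 FPKM in anti-PD-L1 replicate 3, and Herpud1 at 34.3 in anti-PD-L1 replicate 1. The muscle genes Des at 7.90 FPKM, Myh2 at 1.03, Tnnc2 at 58.8 and Myh4 at 22.5 were high in combination replicate 4.

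The effect of sonidegib on Alkal2 differed with and without anti-PD-L1 by an interaction of -3.68 on the log2 scale (limma adjusted p = 0.0490), and did not pass without vehicle replicate 3 (-3.88, adjusted p = 0.141).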

How the results depend on the processing

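The 1 gene called between combination and anti-PD-L1 stayed 1 when only the 8 libraries were fitted, with no trend or robust step, and with a mean of at least 1 FPKM as filter, where it was AY036118. It was a different gene, Ly6a, with the GC slope as covariate (adjusted p = 0.0419). The count was 0 under quantile normalization, median-of-ratios scaling, a pseudocount of 0.1, GC trend removal, GC and length trend removal, the replicate block, and the replicate block with GC trend removal. It was 3 without the filter (AY036118, Bmp3 and 4930567H17Rik) and 2290 with library weights (1273 higher, 1017 lower), where combination replicate 1 had a weight of 0.331. Leaving out 1 library gave 0 to 214 calls. Without combination replicate 1, removing the GC trend gave 439 calls and removing GC and length trends gave 427, settings chosen after seeing the data, and they shared 174 and 176 of the 214 genes. Without vehicle replicate 3, also chosen after seeing the data, AY036118 alone was called and the interaction count was 0. The interaction count of 1 was 0 under each scaling, pseudocount, filter, trend, weight, GC, length and replicate block setting with all libraries, 0 to 5 with 1 of the 8 libraries left out, and 2 without combination replicate 1 after either GC trend removal or GC and length trend removal. The labels do not say whether the replicate numbers pair the tumours, and the block left 841 genes at an unadjusted p under 0.05 against 873. Of 4549 values for 190 named genes 4254 kept their direction and side of the threshold, 262 passed it anew, 15 (all AY036118) no longer passed and 18 changed sign. Cers6 turned positive, at 0.019 after quantile normalization, 0.044 after median-of-ratios scaling, 0.031 using a pseudocount of 0.1, 0.057 by library weights and 0.011 given the GC covariate, and ranged from -0.20 to 0.19 as single libraries were left out. Zbtb46 changed sign at 0.0073 after quantile normalization, 0.04 with GC and length trends removed and 0.050 when combination replicate 1 was left out as well, where Gas1 was at 0.086. Des ranged from -1.58 to 0.16 as single libraries were left out. Cd36 was at -0.019 by library weights, from -0.016 to 0.64 as single libraries were left out, and at -0.19 (GC) and -0.14 (GC and length) in the settings without combination replicate 1. Of 1056 list medians 21 moved, in 10 lists, and the 9 genes tested by permutation kept their side. The cause of these changes was not tested. Differences in genes near or under 1 FPKM are limited by depth.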

Other observations

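Leaving out combination replicate 1 called further genes, and those named here were chosen after their values were seen. Of the 214 genes called, 173 or 80.8% were higher in the combination, all 214 had the same sign with all libraries, and 55 carried clone-type symbols, 47 of them higher. Combination replicate 1 lay within the anti-PD-L1 range for 103 of the 214, beyond it on the side of the other 3 for 23 and beyond it on the opposite side for 88. The median GC content was 46.6% for the genes called higher, 54.9% for those called lower and 50.2% for those not called.

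Of the genes that fell without that library, Pgf, placental growth factor, was at 29.9, 12.1, 34.5 and 14.4 FPKM with anti-PD-L1 and 25.4, 3.49, 4.01 and 2.67 in the combination, and fell by 2.31 on the log2 scale without replicate 1 (limma adjusted p = 0.000971). Nes, the intermediate filament nestin, was at 7.32 to 18.0 FPKM and then at 14.9, 2.63, 2.19 and 2.55, and fell by 2.02 (adjusted p = 0.00333). Rbp7, a retinol-binding protein of endothelium and fat, was at 12.8 to 23.5 FPKM and then at 15, 1.71, 0.683 and 2.85, and fell by 2.87 (adjusted p = 0.0203). Trim47, of the tripartite motif family, was at 36.4 to 72.7 FPKM and then at 78.4, 3.49, 5.17 and 5.05, and fell by 3.03 (adjusted p = 0.0356). In all 4 genes combination replicate 1 lay with or above the anti-PD-L1 tumours.

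Among the genes higher without that library, the imprinted gene Mest was at 1.17 to 3.29 FPKM with anti-PD-L1 and 1.28, 18.7, 8.08 and 38.9 in the combination, and rose by 2.71 (limma adjusted p = 0.0191). Wfdc2, a secreted epithelial protein related to Slpi, was at 2.61 to 13.9 FPKM and then at 17.7, 50.3, 50.2 and 37.2, and rose by 2.53 (adjusted p = 0.0413). Here replicate 1 too lay above every anti-PD-L1 tumour. Rgs2, a brake on G protein signals, rose by 2.20 (adjusted p = 0.0223), and the stress-induced regulator Nupr1 rose by 2.02 (adjusted p = 0.0154) from 26.0 to 59.3 FPKM to 45.1, 216, 144 and 168.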
